A study of Mus musculus with 12 samples.

Results

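Has3 and Cemip, which act on the synthesis and on the breakdown of hyaluronan, were followed through 12 bulk RNA-seq libraries of mouse skin. Both were taken by their symbols and gene IDs, 2 of the 7902 genes in the tables, with 1 table row each, and both were among the 7638 genes tested. The 12 libraries fell into 3 groups of 4. M+NSPCC1 was skin of the ageing model that had also received the grape seed extract NSPCC1. Model was skin in which ageing was induced by D-galactose plus UVA and UVB irradiation, and Ctrl was control skin. The sources used here give no strain, age, dose, time or body site, and do not say whether each library is a separate animal, so the p-values cover the spread among libraries, which may be in part technical.

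Hyaluronan is a long, unsulfated sugar polymer that holds water in the dermis and between the cells of the epidermis, and it is renewed quickly. Hyaluronan synthases such as Has3 sit in the plasma membrane, join UDP-glucuronic acid and UDP-N-acetylglucosamine into the chain and push it out of the cell. Cemip, also called HYBID, binds hyaluronan and is needed for its depolymerisation in human skin fibroblasts. Fragments can then be taken up through receptors such as Cd44 and degraded further by hyaluronidases and lysosomal glycosidases.

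Has3 lies on mouse chromosome 8 from 106870242 to 106882902 and Cemip on chromosome 7 from 83932857 to 84086693 in the RefSeq annotation of GRCm38.p6, the assembly of the build mm10 named in the submitters' processing notes. In the GENCODE annotation of the same assembly, where Has3 reaches further, its last 704 bases overlap Chtf8 on the opposite strand. In the RefSeq annotation Chtf8 lies 961 bases beyond the end of Has3, without overlap. The sources used here do not say whether reads were counted by strand. The ratio of count to FPKM (the deposited level per transcript length and library depth) was 1.22 to 1.23 times as high for Cemip as for Has3 in the 8 libraries with a Cemip FPKM of at least 0.8. The longest GENCODE transcripts of the genes, 7111 bases for Cemip and 5912 bases for Has3, have a length ratio of 1.20, and the next longest Has3 transcript, of 4150 bases, would give 1.71. Of the pair, 1 gene, Cemip, matched the table of RefSeq promoters used here; Has3 did not. The Cemip promoter is printed beside that gene's values. These are the 250 bases before position 84086505, the start in that table (RefSeq, GRCm38.p6, chr7:84086506-84086755, minus strand, written 5′ to 3′ along the gene), with a TATAAA match in capitals. The RefSeq gene span given above reaches further upstream, to 84086693, so 188 of the 250 bases, the TATAAA match included, lie inside that span.
Cemip: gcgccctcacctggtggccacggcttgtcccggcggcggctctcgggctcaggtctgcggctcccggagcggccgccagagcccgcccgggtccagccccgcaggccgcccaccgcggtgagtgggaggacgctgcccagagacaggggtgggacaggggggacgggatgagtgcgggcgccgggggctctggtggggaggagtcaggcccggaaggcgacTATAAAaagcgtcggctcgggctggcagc
The match begins 29 bases before the start in the table, and 12.4% of 32851 promoter windows of the same length held TATAAA on either strand. GGGCGG, searched on both strands, matched 2 times (32.7% of windows held it at least once), and the AP-1 motif TGANTCA did not match (6.75% of windows held it). Neither did the TCF/LEF motif CTTTGAT (3.21% of windows) or the E-box CACGTG (6.02% of windows). No 2 of these motifs overlapped here. G and C made up 75.2% of the window, against a median of 52.4% over all windows.

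Has3 was several-fold higher in both groups with the ageing model than in Ctrl skin. Its FPKM was 6.53, 5.05, 5.17 and 5.02 in M+NSPCC1 libraries 01 to 04, then 4.74, 6.47, 2.59 and 5.60 in the Model libraries, and 0.91, 0.88, 2.39 and 0.80 in the Ctrl libraries. Ctrl 03 stood above the other Ctrl libraries and Model 03 below the other Model libraries, so that the lowest Model value and the highest Ctrl value almost met. On the FPKM scale neither M+NSPCC1 nor Model overlapped Ctrl, while M+NSPCC1 and Model overlapped each other. In CPM (counts per library total, scaled between libraries), Model 03 had 25.3 and Ctrl 03 had 25.7, and Model and Ctrl overlapped. The means were 5.44 ± 0.728 FPKM in M+NSPCC1, 4.85 ± 1.66 in Model and 1.25 ± 0.765 in Ctrl (SD, n = 4 each).

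**Figure D1:**
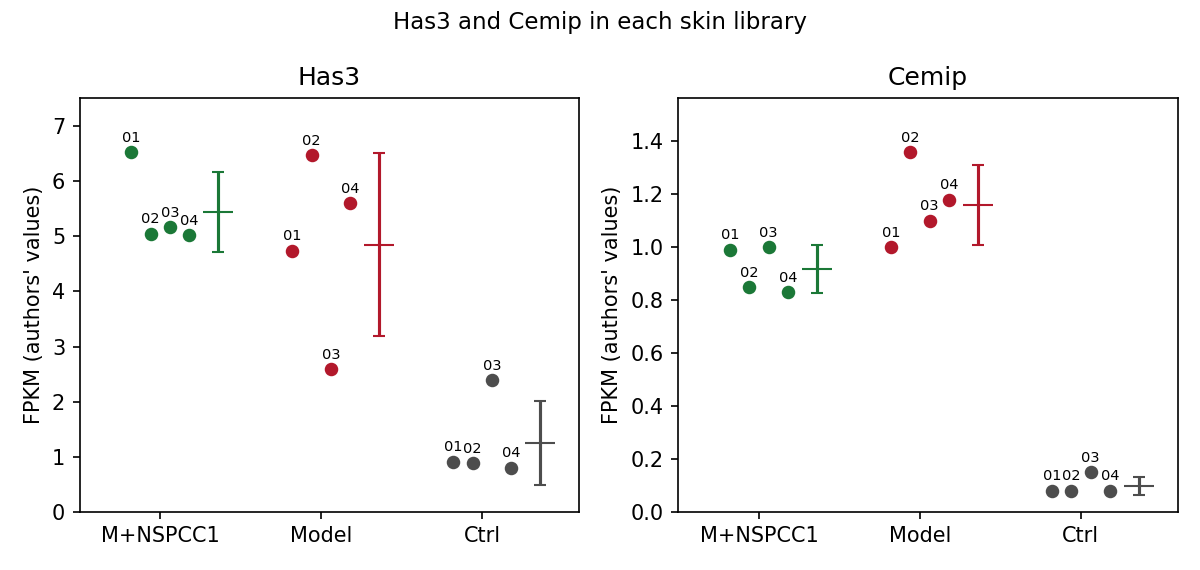
FPKM of Has3 (left) and Cemip (right) in each library of M+NSPCC1, Model and Ctrl; points carry the replicate number, and the bar beside them is the mean ± SD of 4 libraries. Ctrl 03 is the highest Ctrl library for both genes, at 2.39 and 0.15 FPKM, and Model 03 is the lowest Model library for Has3, at 2.59 FPKM.

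Has3 rose by 1.91 on the log2 scale in M+NSPCC1 against Ctrl (SE 0.37; adjusted p = 0.000464, from the quasi-likelihood test of edgeR, Benjamini-Hochberg adjusted over all 7638 genes). In Model against Ctrl it rose by 1.78 (SE 0.37; adjusted p = 0.000755, same edgeR test), a 3.43-fold difference. These comparisons share the Ctrl libraries. The size was larger without Ctrl 03, and in Model against Ctrl also without Model 03. Without both, the log2 fold change of Has3 was 2.45 in M+NSPCC1 against Ctrl, where Model 03 is in neither group. In Model against Ctrl it was 2.51. Without Ctrl 03 alone it was 2.45 in M+NSPCC1 against Ctrl and 2.32 in Model against Ctrl. In bulk skin, more cells that express a gene and more RNA per cell cannot be told apart.

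Cemip was very low in Ctrl skin and several-fold higher in the other groups. Its FPKM was 0.99, 0.85, 1 and 0.83 in the M+NSPCC1 libraries, 1, 1.36, 1.10 and 1.18 in the Model libraries, and 0.08, 0.08, 0.15 and 0.08 in the Ctrl libraries. Every M+NSPCC1 and Model library lay above every Ctrl library, again with Ctrl 03 the highest of its group. The Ctrl values rest on few reads. They came from 9 reads in each of Ctrl 01, 02 and 04 and 19 reads in Ctrl 03, with exact 95% Poisson intervals of 4.12 to 17.1 and 11.4 to 29.7 reads that cover counting error only. M+NSPCC1 libraries had estimated counts of 103.6 to 123.3 and Model libraries of 119.6 to 169.8.

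Cemip rose by 3.03 on the log2 scale in M+NSPCC1 against Ctrl (SE 0.27; adjusted p = 1.5e-06, same edgeR test). In Model against Ctrl it rose by 3.41 (SE 0.27; adjusted p = 6.07e-07, same edgeR test). These are 8.19-fold and 10.6-fold differences. Per length, Cemip stayed below Has3 in every library, and 14.5% of all 7902 genes had a lower mean FPKM than Cemip in M+NSPCC1, 17.3% in Model and 5.52% in Ctrl. For Has3 the shares were 38.0% in M+NSPCC1, 36.3% in Model and 19.2% in Ctrl.

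A rise against Ctrl was common in these tables. By the same test, 50.1% of the tested genes rose and 43.1% fell in M+NSPCC1 against Ctrl (93.2% in all), and 49.1% rose and 41.4% fell in Model against Ctrl (90.5% in all). The 4 M+NSPCC1 libraries all lay above the 4 Ctrl libraries in CPM for 47.4% of genes, Has3 and Cemip among them, and all below for 42.5%. The 4 Model libraries all lay above those of Ctrl for 43.2%, with Cemip but not Has3 among them, and all below for 39.8%. That both members passed is therefore near the background of the tables. The signed log2 fold change places every falling gene below both members. By it, 86.6% of tested genes lay lower than Has3 and 94.3% lower than Cemip in Model against Ctrl. In M+NSPCC1 against Ctrl the shares were 87.6% and 93.3%. Of the 3753 genes that rose in Model against Ctrl, 998 rose more than Has3 and 427 more than Cemip. Of the 3826 that rose in M+NSPCC1 against Ctrl, 924 rose more than Has3 and 499 more than Cemip.

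**Figure D2:**
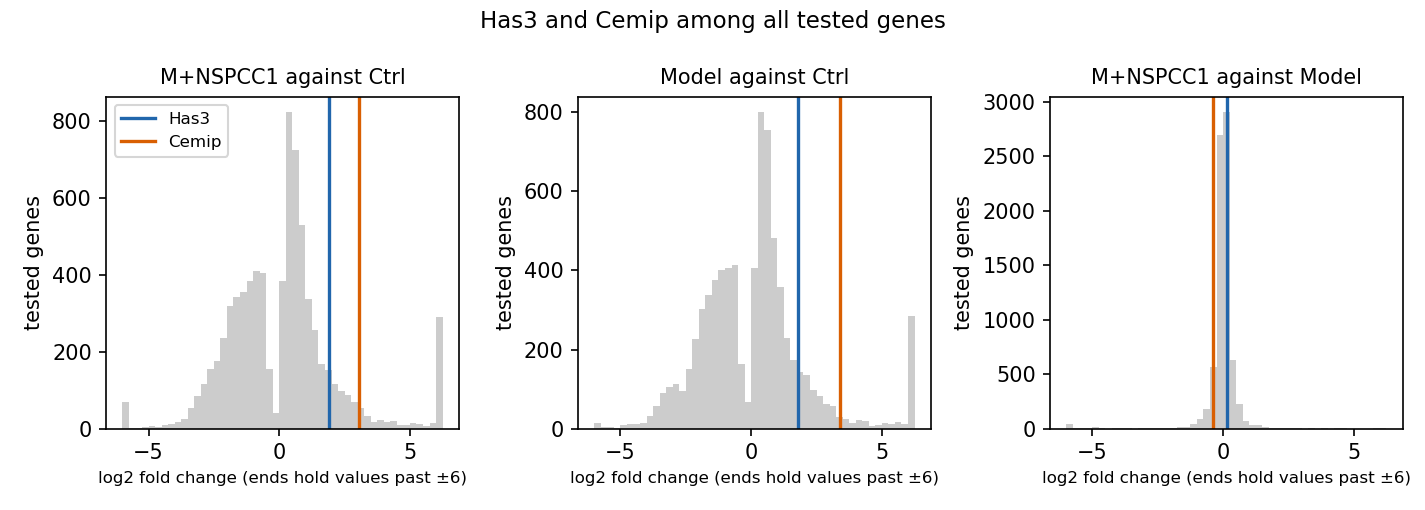
Distribution of the log2 fold change over 7638 tested genes in each comparison (bars, number of genes in bins; the end bins hold values past the axis), with Has3 and Cemip as vertical lines. Both lines lie on the right side of the 2 comparisons with Ctrl, at 1.91 and 3.03 in M+NSPCC1 against Ctrl and at 1.78 and 3.41 in Model against Ctrl, and near 0 in M+NSPCC1 against Model, at 0.13 and -0.38.

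The choice of scaling moved all genes together. In Model against Ctrl, the middle gene of all those tested had a log2 fold change of 0.25 under TMM scaling, the one used here, 0.08 under DESeq2's size factors and 0.43 under whole-library depth. Relative to that median, Has3 was 1.52, 1.52 and 1.53 higher on the log2 scale and Cemip 3.15, 3.15 and 3.15 higher. In M+NSPCC1 against Ctrl the values relative to the median were 1.64, 1.64 and 1.64 for Has3 and 2.76, 2.76 and 2.76 for Cemip.

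Neither gene passed between M+NSPCC1 and Model, which differ in the extract. For Has3 the log2 fold change was 0.13 (95% interval -0.63 to 0.90; adjusted p = 0.992, same edgeR test), and the sign rested on Model 03, without which it was -0.06. The width of the interval leaves differences in either direction possible. For Cemip it was -0.38 (95% interval -0.89 to 0.14; unadjusted p = 0.135; adjusted p = 0.863, same edgeR test). In CPM the 4 M+NSPCC1 libraries lay between 9.23 and 11.3 and the 4 Model libraries between 11.4 and 15.8, so that the groups did not overlap, while the highest M+NSPCC1 and the lowest Model library tied at 1 FPKM. Of all tested genes, 2.89% lay lower in every M+NSPCC1 library than in any Model library, 1.3% lay higher, and 8.13% had a lower log2 fold change than Cemip. No gene passed in this comparison (0.0% of 7638), where 502 had an unadjusted p under 0.05; DESeq2 called 73 genes, with neither Has3 nor Cemip among them.

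The balance of the pair within a library does not depend on scaling between libraries. The ratio of Has3 FPKM to Cemip FPKM was 6.60, 5.94, 5.17 and 6.05 in M+NSPCC1 01 to 04, 4.74, 4.76, 2.36 and 4.75 in Model 01 to 04, and 11.4, 11, 15.9 and 10 in Ctrl 01 to 04. Has3 exceeded Cemip per length in all 12 libraries, with the highest ratios in Ctrl and the lowest in Model. The groups did not overlap, and Model 03 lay far below the other Model libraries, which were nearly equal. Ratios of other gene pairs were not worked out, so how common such a separation is was not examined. Neither gene of the ratio passed between M+NSPCC1 and Model. The means were 5.94 ± 0.587 in M+NSPCC1, 4.15 ± 1.20 in Model and 12.1 ± 2.64 in Ctrl (SD, n = 4 each); as a score over both members the ratio was given no test. The Ctrl ratios have as denominator a Cemip FPKM that the authors rounded to 2 decimals and that stands on 9 to 19 reads. With 0.1 added to each FPKM, the mean log2 ratio was 2.44 in M+NSPCC1, 1.91 in Model and 2.64 in Ctrl, and M+NSPCC1 and Ctrl libraries overlapped.

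**Figure D3:**
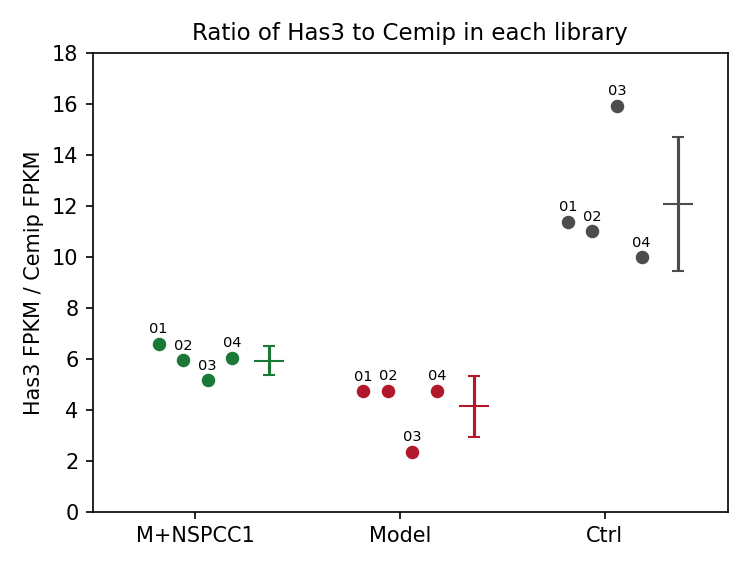
Has3 FPKM divided by Cemip FPKM in each library of M+NSPCC1, Model and Ctrl, with the replicate number at each point and the mean ± SD of 4 libraries beside the points. M+NSPCC1 libraries lie between 5.17 and 6.60, Model libraries between 2.36 and 4.76 and Ctrl libraries between 10 and 15.9.

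Other genes of hyaluronan turnover went in different directions against Ctrl, as did the tested genes at large, of which 50.1% rose and 43.1% fell in M+NSPCC1 against Ctrl and 49.1% rose and 41.4% fell in Model against Ctrl. The counts of the short lists that follow are to be read against those shares. Has3 was the synthase measured; Has1 and Has2 were not analysed here. Of 12 listed breakdown genes 4 were tested, and in each comparison with Ctrl 2 rose, Cemip and Hyal2, and 2 fell, Hexa and Gusb. Hyal2, a hyaluronidase anchored to the cell surface, had 24.95 ± 2.996 FPKM in M+NSPCC1, 26.2 ± 2.96 in Model and 15.1 ± 0.265 in Ctrl (SD, n = 4 each). Hyal2 rose by 0.51 on the log2 scale in M+NSPCC1 against Ctrl and by 0.61 in Model against Ctrl, from an FPKM far above that of Cemip. Hexa, a subunit of the lysosomal hexosaminidase, had 49.96 ± 8.97 FPKM in M+NSPCC1, 44.1 ± 13.9 in Model and 110 ± 20.2 in Ctrl, and the lysosomal glucuronidase Gusb had 11.4 ± 1.24 FPKM in M+NSPCC1, 10.7 ± 2.90 in Model and 19.7 ± 3.76 in Ctrl. Their log2 fold changes were -1.35 and -1.002 in M+NSPCC1 against Ctrl and -1.49 and -1.05 in Model against Ctrl.

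Of 8 listed receptors 5 were tested, and 2 rose and 3 fell in each comparison with Ctrl, where 49.1% to 50.1% of all tested genes rose and 41.4% to 43.1% fell. Cd44, the main hyaluronan receptor of keratinocytes and leukocytes, had 38.9 ± 5.82 FPKM in M+NSPCC1, 37.1 ± 8.92 in Model and 9.09 ± 2.30 in Ctrl. Hmmr, which binds hyaluronan and also the mitotic spindle, had 9.52 ± 1.17 FPKM in M+NSPCC1, 8.94 ± 2.31 in Model and 1.36 ± 0.212 in Ctrl. Lyve1, the receptor of lymphatic vessels and of some macrophages, fell, with a log2 fold change of -1.82 in M+NSPCC1 against Ctrl and -1.97 in Model against Ctrl. The scavenger receptors Stab1 (-1.86 and -1.75) and Stab2 (-2.27 and -2.196, at most 0.46 FPKM in any library) fell in the same comparisons. Markers of macrophages and dendritic cells (9 of 9 measured) and of endothelium (7 of 7) fell in the same comparisons, and their part in the fall of these receptors was not tested. The macrophage and dendritic cell markers took 0.120% to 0.226% of counts in M+NSPCC1, 0.106% to 0.303% in Model and 0.495% to 0.702% in Ctrl, and the endothelial markers 0.0246% to 0.0291% in M+NSPCC1, 0.0158% to 0.0448% in Model and 0.0815% to 0.0909% in Ctrl.

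Of the 20 genes listed as hyaluronan-binding matrix proteins, 6 were tested, of which 3 rose and 3 fell against Ctrl in each group. Acan, the large aggregating proteoglycan aggrecan, had 1.51 ± 0.255 FPKM in M+NSPCC1, 1.16 ± 0.281 in Model and 0.035 ± 0.0191 in Ctrl (SD, n = 4 each). Hapln3, a link protein, and Vcan, the proteoglycan versican, also rose. Itih2 and Itih5, heavy chains of the inter-alpha-trypsin inhibitor family, fell. Their log2 fold changes were -2.64 and -1.12 in M+NSPCC1 against Ctrl and -2.79 and -1.31 in Model against Ctrl. Habp4, in the list for its name as a hyaluronan-binding protein and not as an established matrix protein, fell as well.

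**Figure D4:**
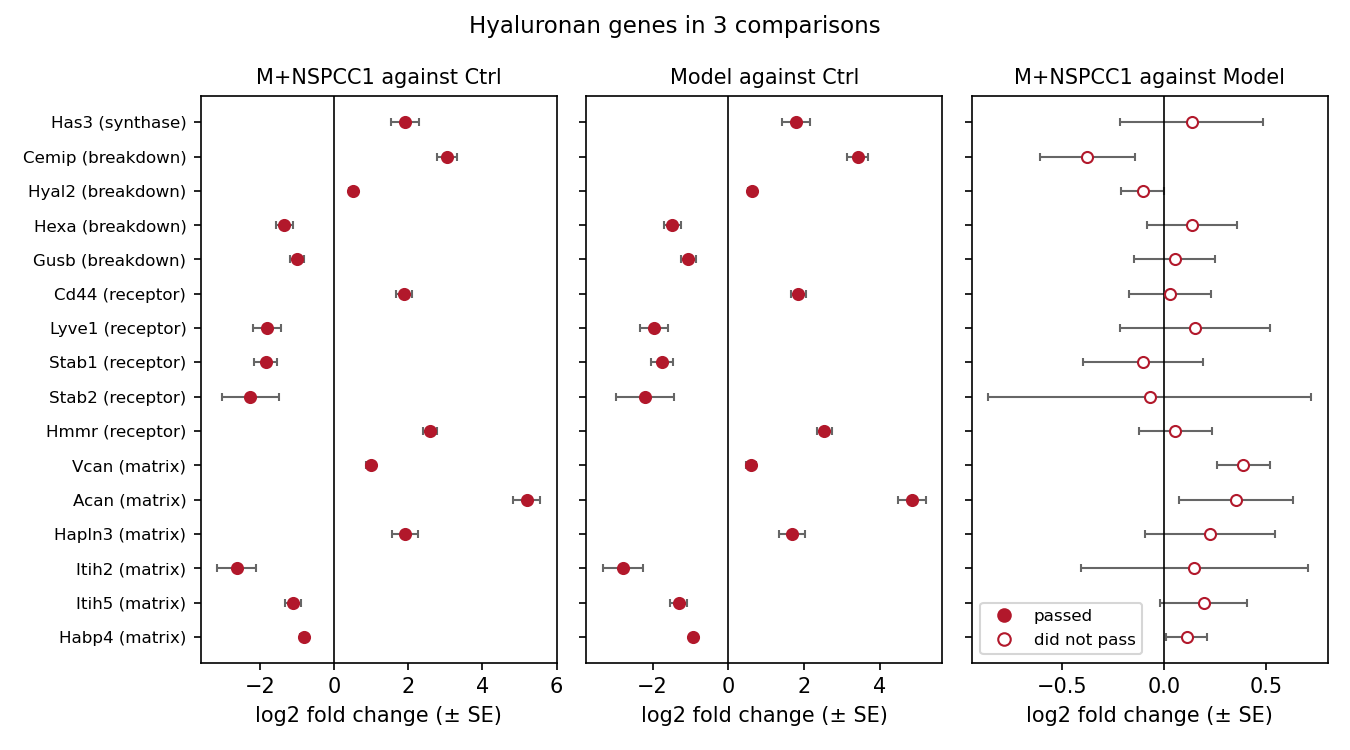
Log2 fold change with SE of the 16 tested synthase, breakdown, receptor and matrix genes in M+NSPCC1 against Ctrl, Model against Ctrl and M+NSPCC1 against Model, with a narrower axis in the last; filled points passed at an adjusted p under 0.05 and open points did not. Each gene lies on the same side of 0 in both comparisons with Ctrl, which share the Ctrl libraries, and none passed in M+NSPCC1 against Model. The matrix label follows the list, in which Habp4 stands by its name.

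Of 17 genes listed under the supply and turnover of the sugar precursors, 9 were tested. In Model against Ctrl 2 rose, 6 fell and Hk1, listed at 0 in several libraries, did not pass (adjusted p = 0.285, same edgeR test), with a median log2 fold change of -0.91 against 0.25 over all tested genes, of which 41.4% fell. In M+NSPCC1 against Ctrl 2 rose and 7 fell, where 43.1% of all tested genes fell. The seventh was Hk1 (adjusted p = 0.00977, same edgeR test), listed at 0 in every M+NSPCC1 library. Hk1 was also at 0 in Ctrl 01 and had only 1.03 to 1.13 FPKM in the other Ctrl libraries. Ugp2, which makes UDP-glucose, had 48.7 to 58.9 FPKM in M+NSPCC1, 35.8 to 57.4 in Model and 168 to 213 in Ctrl libraries, and Pgm1, a phosphoglucomutase, 32.1 to 43.7 FPKM in M+NSPCC1, 20.6 to 40.6 in Model and 127 to 158 in Ctrl libraries. Gpi1, an enzyme of glycolysis, fell by 1.19 on the log2 scale in Model against Ctrl, while Pgm2, another phosphoglucomutase, rose by 1.47. Skeletal muscle markers (14 of 14) fell in the same comparisons, with 0.982% to 1.56% of counts in M+NSPCC1, 0.415% to 1.38% in Model and 6.90% to 7.07% in Ctrl, and their part in the change of these enzymes was not tested.

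Growth factors and receptors listed as inducers of the synthases were divided as well: of 9 tested genes 4 rose and 5 fell in each comparison with Ctrl, against the same 49.1% to 50.1% and 41.4% to 43.1% over all tested genes. Tgfa, a ligand of the epidermal growth factor receptor, had 14.6 to 17.6 FPKM in M+NSPCC1, 18.8 to 23.3 in Model and 3.17 to 4.02 in Ctrl libraries. The receptor Egfr rose, with log2 fold changes of 0.80 in M+NSPCC1 against Ctrl and 0.95 in Model against Ctrl, as did Fgfr2, a receptor of keratinocyte growth factor, with 1.88 and 1.92. Btc, another ligand of Egfr, fell, with -2.73 and -2.54. In M+NSPCC1 against Model none of the 34 tested genes of the 6 hyaluronan lists passed, and their median log2 fold change was -0.04, against 0.01 over all tested genes.

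The tested genes nearest to Has3 on chromosome 8 all rose against Ctrl, where 49.1% (Model) and 50.1% (M+NSPCC1) of all tested genes rose. Tested genes are part of the transcriptome, so the nearest can lie far off. Cdh3 was 313331 bases from Has3, and Fah was 498466 bases from Cemip. In Model against Ctrl the log2 fold change was 0.59 for Chtf8, 0.60 for Utp4, 1.46 for the epithelial cadherin gene Cdh1 and 3.69 for Cdh3, which encodes P-cadherin of basal and hair matrix cells; in M+NSPCC1 against Ctrl it was 0.50, 0.66, 1.42 and 3.67. Around Cemip on chromosome 7 the directions differed: Abhd17c rose by 1.22 on the log2 scale in Model against Ctrl, and Mesd (-0.57), Il16 (-2.02) and Fah (-0.92) fell.

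The patterns most like each member over the 12 libraries were found by Pearson's r of log2 CPM. The libraries fall into a Ctrl cluster and a cluster of the other groups, which by itself gives high values: 903 genes had r over 0.9 with Has3 and 1934 with Cemip. Nearest to Has3 were Rassf6 (r = 0.981), Smn1 (0.980), Nme1 (0.978) and Mrto4 (0.977), and nearest to Cemip were Endou (0.995), Sfn (0.995), Zdhhc13 (0.994) and Lmo4 (0.992). Sfn encodes the keratinocyte protein 14-3-3 sigma, and Nme1 a nucleoside diphosphate kinase. Between Has3 and Cemip, r of the deviations from the group means was 0.817 over 12 libraries and 0.432 without Ctrl 03, which was high for both.

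Cell type markers also differed from Ctrl, some lists upward and others downward, and their part in the change of the pair was not tested. Of 18 listed hair shaft and inner root sheath genes 17 were measured and all 17 rose in both comparisons with Ctrl; their summed count was 3.61% to 6.25% of the library in M+NSPCC1, 4.92% to 7.54% in Model and 0.00107% to 0.0324% in Ctrl, where up to 9 of them were at 0. The 3 measured basal epidermis markers took 0.324% to 0.551% in M+NSPCC1, 0.371% to 0.637% in Model and 0.228% to 0.288% in Ctrl, and the 5 suprabasal markers 0.344% to 0.541% in M+NSPCC1, 0.264% to 0.4998% in Model and 0.655% to 0.887% in Ctrl. Within these lists the members differed: Trp63 rose, Itgb4 fell and Krt5 rose in Model but did not pass in M+NSPCC1 against Ctrl, while Flg and Calml3 rose and Krt10, Krtdap and Sbsn fell in both comparisons. Itgb4 was low throughout, at 0 to 0.55 FPKM in M+NSPCC1, 0 to 0.31 in Model and 1.03 to 3.83 in Ctrl. All 8 melanocyte markers rose in both comparisons, with 0.204% to 0.320% in M+NSPCC1, 0.102% to 0.309% in Model and 0.00138% to 0.0044% in Ctrl. Beside the muscle, endothelial and macrophage markers, all 7 measured fibroblast, 4 adipocyte and 7 nerve and Schwann cell markers fell in both comparisons. Of 5 dermal papilla markers 4 rose and 1 fell, and of 3 sebaceous gland markers 2 rose and 1 fell, in each comparison. Fibroblast markers took 0.607% to 0.763% in M+NSPCC1, 0.387% to 1.05% in Model and 1.12% to 1.38% in Ctrl. Model 03, the Model library with the lowest Has3, had the lowest hair (4.92%) and melanocyte (0.102%) shares of its group and the highest fibroblast (1.05%), macrophage (0.303%) and basal epidermis (0.637%) shares. In it 929 genes stood at least 2-fold above the mean of the other Model libraries, against 87 to 108 in each of the others. Model 02, the Model library with the highest Has3, had 826 genes at least 2-fold below the others, against 236 to 350 in each of the rest. Ctrl 03, the Ctrl library with the highest Has3 and Cemip, had the lowest hair share of its group (0.00107%), and 84 genes stood as far above the other Ctrl libraries, against 58 to 99 in each of those. M+NSPCC1 01, with the highest Has3 of its group, had the lowest hair (3.61%) and melanocyte (0.204%) shares among the M+NSPCC1 libraries. Its basal epidermis share (0.551%) was the highest of that group.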

How the data were processed

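Messenger RNA libraries from TRIzol-extracted skin gave 2 tables each, per the labels' protocols. The authors deposited estimated counts and FPKM values; the sources used here do not say how table rows were chosen. HISAT2 2.2.1, RSEM 1.3.1, DESeq2 1.34.0 and mm10 appear, with no roles, in the submitters' processing notes. Each table held 10720 rows of 7902 genes, and 7881 gene IDs matched RefSeq. Rows were summed by gene ID and counts rounded to whole numbers. Summed counts ran from 9717338 to 10952623 per library, which is not the whole depth, since the tables hold part of the transcriptome.

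edgeR 4.0.16 in R 4.3.3 (quasi-likelihood, TMM factors, default filter) fitted all 12 libraries with a coefficient per group; a gene passed when its Benjamini-Hochberg adjusted p was under 0.05. Fold changes are the first-named group over the second. CPM used the same scaling, and log2 CPM a prior count of 2. Alternatives used DESeq2 1.42.0, limma 3.58.1 on log2(FPKM + 1) or log2(FPKM + 0.1), which understates low genes, other scalings and filters, and each library left out. The members and gene lists were chosen with earlier results of these data known; leaving out Ctrl 03 and Model 03 together was chosen after seeing the data. The genes named were all tested synthases, breakdown genes and receptors, the 4 smallest p in Model against Ctrl of each other list, the 4 nearest by r, and 2 neighbours on each side; Hapln3, Vcan and Hk1 were added after their values were seen. The test steps were run on simulated data with 200 changed genes. Far more genes were called against Ctrl here, so the simulation does not cover that setting.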

Additional observations from a re-analysis of the deposited data

Results flagged for a closer look

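In 69 groups of 4 libraries examined, 7 had a library far from the other 3 by Dixon's test; chance alone gives about 1 in 20. For Has3, Ctrl 03 stood high at 2.39 FPKM, against 0.80 to 0.91 in the other Ctrl libraries, and M+NSPCC1 01 at 6.53 FPKM, against 5.02 to 5.17. For Cemip, Ctrl 03 stood high at 0.15 FPKM, against 0.08 in each of the others. Those others tie, so any Ctrl 03 value apart from 0.08 would have been flagged. They stand on 9 reads each, against 19 in Ctrl 03, and the Poisson intervals of these counts overlap. The ratio of Has3 to Cemip was low in Model 03, at 2.36 against 4.74 to 4.76. Among other genes, Itih2 was at 0.95 FPKM in Ctrl 03 (0.39 to 0.47 in the others), Pgm1 at 43.7 FPKM in M+NSPCC1 02 (32.1 to 33.9) and Fgfr2 at 5.69 FPKM in Ctrl 01 (4.59 to 4.72).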

How the results depend on the processing

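Has3 and Cemip kept their direction and passed in both comparisons with Ctrl under all 24 alternatives, and neither passed in M+NSPCC1 against Model under any. With each library left out, the log2 fold change of Has3 ran from 1.74 to 2.45 in M+NSPCC1 against Ctrl, from 1.61 to 2.32 in Model against Ctrl and from -0.06 to 0.31 in M+NSPCC1 against Model; the sign turned without Model 03 (-0.06429), also when Ctrl 03 was left out with it (-0.06435). For Cemip the ranges were 2.93 to 3.38, 3.31 to 3.75 and -0.45 to -0.28. On log2(FPKM + 1) the change of Cemip was 0.80 and 0.97 against Ctrl, since the added 1 is as large as its level. The count of genes called in M+NSPCC1 against Model, 0, became 73 with DESeq2, 2 with limma on unfiltered FPKM, 2 with only the 8 libraries compared and 9 without Ctrl 03 and Model 03, and 0 to 4 with each library left out; the cause was not tested. The mean log2 ratio of Has3 to Cemip was 2.27 from counts in place of FPKM (2.57) in M+NSPCC1, which leaves out length, and 2.64 with 0.1 added to FPKM (3.57) in Ctrl. Replicate numbers did not pair the libraries: the deviations of 12 same-numbered pairs had r from -0.16 to 0.12, and with the number as a block 7027 genes were called in M+NSPCC1 against Ctrl, 6823 in Model against Ctrl and 0 in M+NSPCC1 against Model. The other genes named by the rules given above kept direction and call against Ctrl in all 1720 repeats. That count does not cover the cell type markers, or genes added after their values were seen, such as Hapln3, Vcan and Hk1. Counting error limits Cemip in Ctrl, at 9 to 19 reads.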

Other observations

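Ctrl 03, which had the highest Has3 and Cemip of its group, also had the highest level of several other genes. Those given here were chosen after their values were seen. Over all genes Ctrl 03 did not stand out, with 84 at least 2-fold above the mean of the other Ctrl libraries. The other Ctrl libraries had 58 to 99 such genes each. Areg, a ligand of the epidermal growth factor receptor, had 7.84 CPM in Ctrl 03 and 1.99, 2.32 and 2.81 CPM in Ctrl 01, 02 and 04. Adamts4, a protease that cuts versican and aggrecan, had 20.4 CPM in Ctrl 03 and 7.63, 6.19 and 5.83 CPM in the other Ctrl libraries. Angptl4, a secreted inhibitor of lipoprotein lipase, had 215.6 CPM in Ctrl 03 and 54.6, 64.8 and 65.0 CPM in the others. In Model libraries Areg ran from 18.9 to 25.95 CPM, Adamts4 from 8.20 to 22.4 CPM and Angptl4 from 209.6 to 324.9 CPM, so that Ctrl 03 lay within the Model range for Adamts4 and Angptl4 and below it for Areg.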
